A study of Mus musculus with 6 samples.

Results

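Dbp, Tef and Hlf encode the mouse PAR bZIP transcription factors, and Nfil3 (also called E4BP4) encodes the repressor that competes with them for the same DNA element. The 4 genes were picked by symbol from a table of 22298 genes of mouse liver sinusoidal endothelial cells, the fenestrated endothelium of the liver lobule. They were selected from the table with the difference of Dbp and its partners between the groups already known. Their values in that comparison are therefore given as a description. Where calls of the fit across all genes are stated for them, these rest on the values that led to their choice and are no independent test. All 4 are in the table on 1 row each and all 4 passed the filter on low counts, which 13096 genes passed. The study is bulk poly(A)-selected RNA sequencing of wild-type mice, with 3 libraries titled control (replicates 1, 2 and 3) and 3 titled aging (replicates 2, 3 and 5). The series' design sets mice aged 24 months against mice aged 8 weeks, but the age label reads 24 months on the control libraries and 8 weeks on the aging libraries. Which group is the old one is not settled by the labels, so directions are stated by title, with aging set against control. The labels give neither the hour of the day at which cells were collected nor say whether separate mice gave the libraries. The p-values below thus measure the spread between libraries, which may be technical.

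In the circadian clock, the activators CLOCK and BMAL1 bind E-boxes and drive transcription of their own repressors and of clock-output factors such as DBP. The PAR bZIP factors carry that rhythm onward by binding D-boxes in genes of metabolism and detoxification in the liver, and in clock genes such as the Per and Rev-erb genes. NFIL3 binds D-boxes as a repressor, is itself repressed by the REV-ERB proteins, and is known to be most abundant at a time of day roughly opposite to DBP. Outside the clock, NFIL3 is a cytokine-induced factor needed for the development of natural killer cells and of type 1 dendritic cells.

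The promoters of the members were read for the letters of these elements, since E-boxes, D-boxes and REV-ERB/ROR elements are the routes by which the clock is known to reach them. RefSeq promoter windows of GRCm38.p6, each 300 bases long from 250 before to 50 after a transcription start, were on hand for all 4 genes, with 2 starts for Tef. The E-box (CACGTG, the same on both strands) stands in 7.15% of all 32851 windows, its variant CACGTT in 4.68%, the D-box (TTANGTAA) in 2.32% and the hexamer of the ROR and REV-ERB receptors (AGGTCA) in 16.3%, counted on both strands. A wider D-box, TTANGNAA, which includes the former, stands in 11.5%. Both Tef windows hold 1 E-box, and the Nfil3 window holds 1 receptor hexamer, on the reverse strand, 12 bases before the start. None of these letters is in the Dbp or Hlf window. Elements farther upstream or deeper within a gene lie outside the windows and were not read, for these or any other gene. The stretches below are 5′ to 3′ on the gene's strand, end at or before the start, and carry the matched letters in capitals where there are any. They lie at chr15:81802520-81802577 (+) and chr15:81811250-81811307 (+) for Tef, chr13:52981040-52981077 (-) for Nfil3, chr7:45705127-45705246 (+) for Dbp and chr11:90390918-90391037 (-) for Hlf.

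Tef, first start: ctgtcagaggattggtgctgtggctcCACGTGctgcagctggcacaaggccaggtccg
Tef, second start: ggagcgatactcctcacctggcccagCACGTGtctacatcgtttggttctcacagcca
Nfil3: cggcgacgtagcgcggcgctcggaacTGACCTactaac
Dbp: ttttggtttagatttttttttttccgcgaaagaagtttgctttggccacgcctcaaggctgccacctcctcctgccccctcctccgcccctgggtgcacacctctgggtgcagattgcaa
Hlf: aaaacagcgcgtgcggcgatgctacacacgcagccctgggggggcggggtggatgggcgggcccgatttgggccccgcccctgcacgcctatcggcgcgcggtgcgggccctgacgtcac

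Among the clock genes known to carry D-boxes, the Per3 window holds 2 D-boxes, at chr4:151044801-151044885 (-), which 0.0822% of all windows do. A Rorb window holds 1 D-box, 95 bases before the start. The Per1 window that holds an E-box also has a wider D-box, at chr11:69098899-69098948 (+). The windows of Cry1, Nr1d1, Nr1d2 and Rora hold neither form of the D-box, and no window was on hand for Per2. These matches describe letters only, and no binding was measured.

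Per3: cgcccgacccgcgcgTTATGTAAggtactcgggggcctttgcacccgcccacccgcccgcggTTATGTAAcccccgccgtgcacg
Per1: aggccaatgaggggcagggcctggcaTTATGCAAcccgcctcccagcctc

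The data behind these genes are 15999220 to 17871220 counts per library, of which 2.74% to 3.33% were mitochondrial. Levels are given as CPM, library-size scaled counts with TMM factors, and as FPKM, the deposited values scaled also for gene length, which alone serves to compare genes of different length. The 8 sinusoidal markers, of which Stab2, Stab1, Mrc1 and Fcgr2b carry most of the sum, summed to 20042 to 25195 CPM in the control libraries and 20650 to 23770 CPM in the aging libraries. Lyve1, a hyaluronan receptor of this endothelium, stood apart from that sum, at 551, 629 and 662 CPM in the control and 244, 67.7 and 462 CPM in the aging libraries, without overlap (log2 fold change -1.25 ± 0.60, SE; edgeR adjusted p = 0.207). The groups also did not overlap for Oit3, which was lower in the aging libraries, and for Clec4g and Gpr182, which were higher there. That made 4 of the 8, beside 38.0% of all tested genes. None of the 8 passed in edgeR, where 4 had an unadjusted p under 0.05 (Stab2, Oit3, Clec4g and Gpr182, but not Lyve1). DESeq2 called none and limma on FPKM called 1. Over all genes DESeq2 called 2295 of 17034 and limma 1373 of 12382. For counts by unadjusted p, here and below, no share over all genes is given. Transcripts of other cells were also present, and their calls stand beside 7.22% of all tested genes that rose and 5.59% that fell. Markers of neutrophils summed to 222 to 483 CPM in the control and 1545 to 4299 CPM in the aging libraries, and 6 of 10 rose. Hepatocyte markers summed to 734 to 878 against 653 to 766 CPM, and 5 of 12 fell, which were Pck1, Tat, Fabp1, Ass1 and Cps1, while Alb did not pass. Stellate cell and fibroblast markers summed to 36.9 to 44.2 against 18.6 to 20.1 CPM, and 3 of 6 fell. No marker of these lists was at 0 in all libraries. Pan-endothelial markers summed to 9789 to 11492 against 9219 to 9938 CPM, Kupffer cell markers to 1200 to 1844 against 790 to 2006 CPM, and those of B cells, cholangiocytes and erythroid cells to no more than 141 CPM in any library. None of these passed in edgeR, with 1 unadjusted p under 0.05 among Kupffer markers and 1 among erythroid markers; DESeq2 and limma each called 1 Kupffer marker. T cell markers summed to 4.34 to 9.06 against 6.57 to 23.7 CPM, and Cd8a, 1 of 5, rose. In bulk RNA, fewer cells of a type and less RNA per cell cannot be told apart.

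Dbp, the factor first found at the D site of the albumin promoter and one of the most strongly cycling transcripts of the liver, was the member with the largest fold difference between the groups. Its counts were 385, 590 and 577 in control replicates 1, 2 and 3, and 60, 67 and 39 in aging replicates 2, 3 and 5. Scaled, these were 22.9, 33.2 and 36.3 CPM against 3.45, 3.96 and 2.27 CPM. Every control library stood far above every aging library, and control replicate 1 was the lowest of its group. The means were 30.8 ± 6.99 and 3.23 ± 0.867 CPM (SD, n = 3 per group), a 9.55-fold difference. The fitted log2 fold change was -3.25 ± 0.26 (SE). Relative spread within the groups was similar, with a coefficient of variation of 22.7% in the control and 26.9% in the aging libraries. Exons of Dbp share 539 bases with Sphk2, a sphingosine kinase gene on the opposite strand, in GENCODE M21. Since the strand setting of the counting is not given in the sources used here, reads of the pair may be mixed. Sphk2 stood at 30.5 ± 2.41 and 26.4 ± 3.38 CPM (SD, n = 3 per group) and its groups overlapped.

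Tef, the thyrotroph embryonic factor, was lower in the same libraries by a smaller factor. It had 825, 1042 and 1017 counts in the control libraries and 353, 536 and 257 in the aging libraries, which is 49.2, 58.6 and 64.0 CPM against 20.3, 31.7 and 14.9 CPM. The groups did not overlap, and aging replicate 3 lay closest to the control libraries. The means of 57.3 ± 7.52 and 22.3 ± 8.53 CPM (SD, n = 3 per group) differed 2.57-fold, and the fit gave a log2 difference of -1.36 ± 0.27 (SE). A transcript antisense to Tef, Gm17597, shares 193 exon bases with it in GENCODE M21 and is not a row of the table.

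Hlf, the hepatic leukemia factor, was the least abundant member and showed the smallest fold difference. Its counts were 98, 119 and 143 in the control libraries and 98, 63 and 49 in the aging libraries, or 5.84, 6.69 and 9.0 CPM against 5.64, 3.72 and 2.85 CPM. The groups barely separated: control replicate 1 and aging replicate 2 had the same count. The means were 7.18 ± 1.64 and 4.07 ± 1.43 CPM (SD, n = 3 per group), 1.76-fold apart, and the fitted log2 difference was -0.82 ± 0.29 (SE).

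Nfil3 ran the other way. It had 264, 239 and 162 counts in control replicates 1, 2 and 3 and 1761, 790 and 670 counts in aging replicates 2, 3 and 5, or 15.7, 13.4 and 10.2 CPM against 101, 46.7 and 39.0 CPM. All aging libraries were above all control libraries, and aging replicate 2 stood far above the other aging libraries. The means of 13.1 ± 2.78 and 62.3 ± 34.0 CPM (SD, n = 3 per group) differed 4.75-fold, and the fit gave a log2 difference of 2.25 ± 0.40 (SE). The coefficient of variation was 54.6% in the aging libraries, the highest of any member in either group. Without aging replicate 2 the log2 fold change was 1.71 ± 0.18 (SE).

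**Figure D1:**
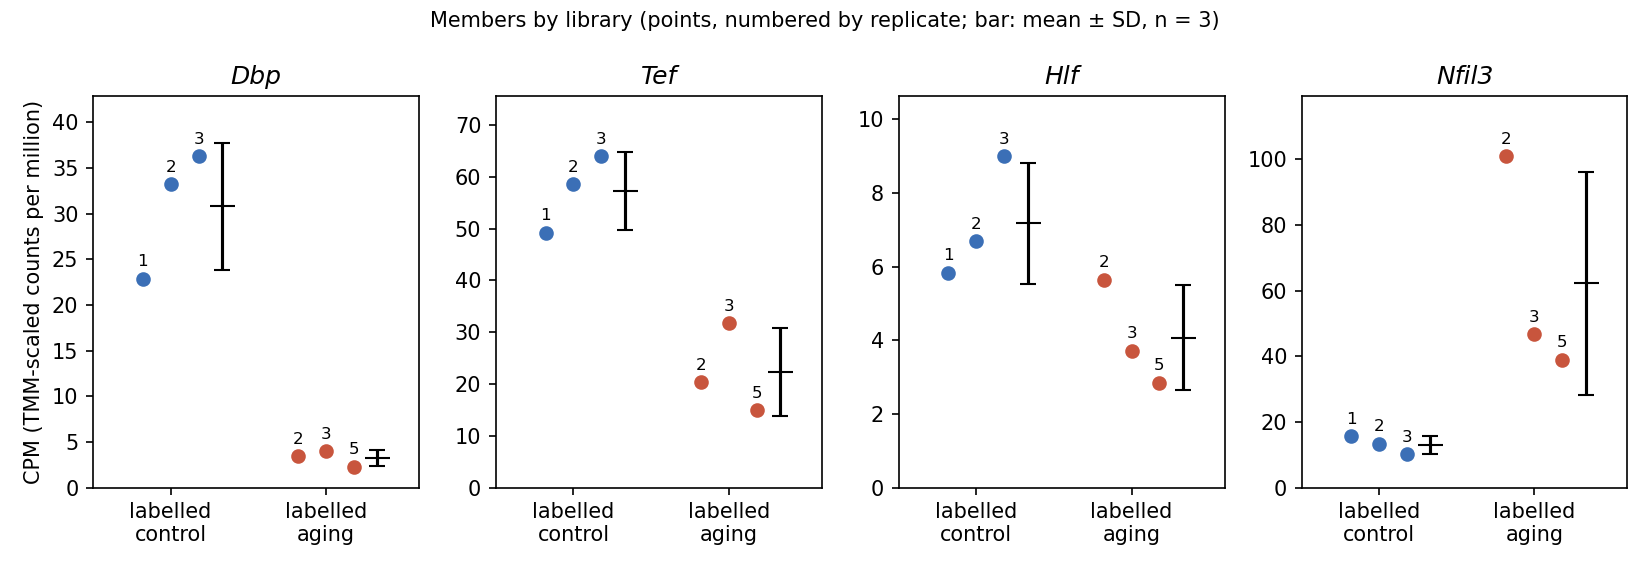
Level of each member in CPM (y axis, from 0, a scale of its own per gene) in the 3 libraries labelled control and the 3 labelled aging, numbered by replicate, with the mean ± SD beside them. Dbp at 22.9 to 36.3 against 2.27 to 3.96 CPM shows the largest fold difference, Hlf the smallest, and Nfil3 is higher in all 3 aging libraries with replicate 2 at 101 CPM.

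In the edgeR quasi-likelihood fit across all genes, with a call at a false discovery rate of 0.05, 3 of the 4 members were called, 2 of them lower (Dbp and Tef) and 1 higher (Nfil3). Of all 13096 tested genes 12.8% were called, 7.22% higher and 5.59% lower. The groups did not overlap for 4 of 4 members and for 38.0% of all tested genes. As the members were chosen from this comparison, nothing is read from these shares. The 3 calls became 1, Dbp, without control replicate 1, 2 or 3, and Tef also lost its call without aging replicate 2. Hlf was called only without aging replicate 2, where its log2 fold change was -1.12 ± 0.27 (SE). With upper-quartile scaling the split of all calls turned from 946 higher and 732 lower to 823 higher and 969 lower, and the same 3 members were called. In the authors' deposited table the log2 fold changes are -3.17 for Dbp, -1.29 for Tef, -0.995 for Hlf and 1.75 for Nfil3, computed from group means that are not the plain means of the deposited FPKM.

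On the per-length scale the order of the members turned over between the groups. In the control libraries Dbp stood at 18.6 ± 4.19 FPKM, Tef at 13.8 ± 1.35, Nfil3 at 6.59 ± 1.57 and Hlf at 1.3 ± 0.243 FPKM (SD, n = 3). Dbp was above Tef in each control library, but the ranges of the 2 genes overlapped across libraries (14.1 to 22.4 and 12.4 to 15.1 FPKM), while Nfil3 and Hlf were apart from them and from each other. In the aging libraries Nfil3 came first at 30.5 ± 16.9 FPKM, followed by Tef at 5.28 ± 2.11, Dbp at 1.98 ± 0.573 and Hlf at 0.717 ± 0.260 FPKM (SD, n = 3), with no overlap between neighbours in that order. Averaged over all 6 libraries, the FPKM of Nfil3 exceeded that of 69.4% of tested genes, that of Dbp 53.2%, of Tef 51.3% and of Hlf 12.9%.

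The summed FPKM of the 3 activators was 27.6, 34.6 and 39.0 in control replicates 1, 2 and 3 and 7.79, 10.8 and 5.34 in aging replicates 2, 3 and 5. Divided by the FPKM of Nfil3, this sum gave ratios of 3.40, 5.23 and 7.81 in the control and 0.156, 0.469 and 0.289 in the aging libraries. Activator transcripts thus outnumbered Nfil3 per length in every control library, and Nfil3 outnumbered them in every aging library. Dbp made up 51.0% to 57.3% of the activator FPKM in the control libraries and 24.0% to 27.5% in the aging libraries. Tef made up 38.7% to 44.9% and 63.2% to 69.8%, and Hlf 3.41% to 4.12% and 6.11% to 12.8%.

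**Figure D2:**
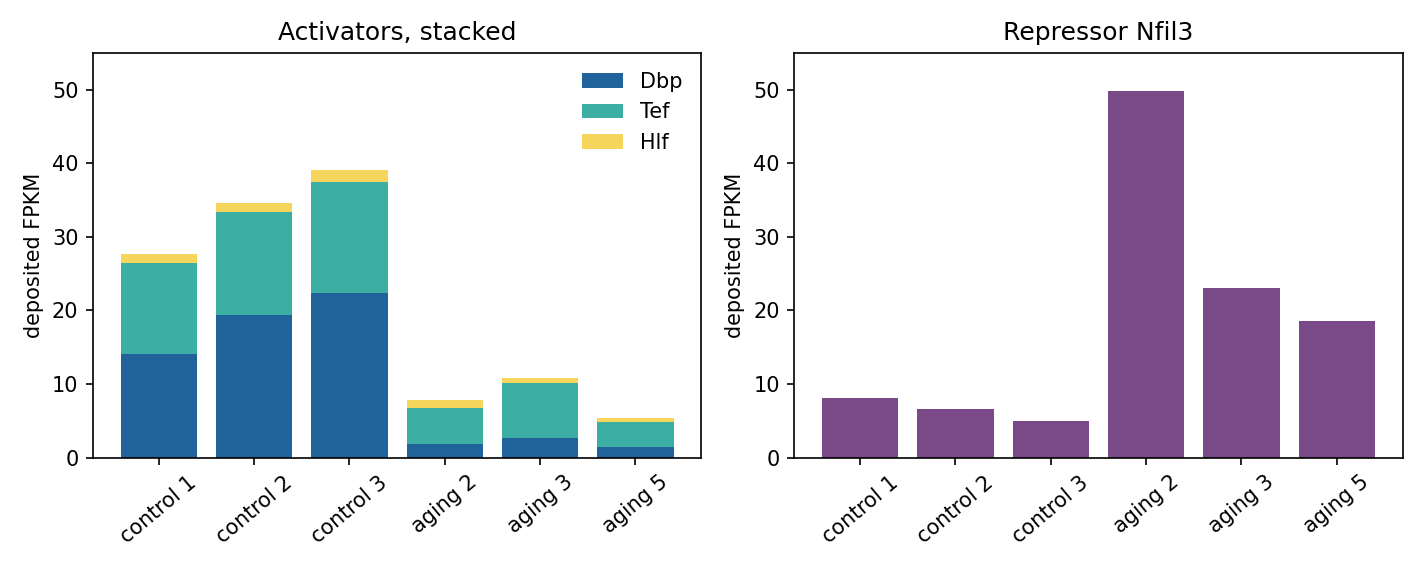
Deposited FPKM (y axis, from 0, the same scale in both panels) of Dbp, Tef and Hlf stacked (left) and of Nfil3 (right) in each of the 6 libraries. The stacks reach 27.6 to 39.0 FPKM in the control and 5.34 to 10.8 FPKM in the aging libraries, and Nfil3 runs from 5.0 to 8.14 and from 18.5 to 49.8 FPKM.

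Within the control group the libraries kept one order in the 3 activators, with replicate 1 lowest and replicate 3 highest, and Nfil3 took the reverse order. Within the aging group this was not so: replicate 3 was highest in Dbp and Tef, and replicate 2 in Hlf and Nfil3. Over the 6 libraries the Pearson correlation of log2 CPM was 0.96 for Dbp with Tef, 0.85 for Dbp with Hlf and 0.81 for Tef with Hlf, and -0.90, -0.84 and -0.58 for Dbp, Tef and Hlf with Nfil3. These points share their libraries and are mostly set by the 2 groups, so they describe these libraries only.

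Nfil3 was ordered over the 6 libraries as the sum of the neutrophil markers was, though not as every single marker. The 10 markers summed to 483, 477 and 222 CPM in control replicates 1, 2 and 3 and to 4299, 1823 and 1545 CPM in aging replicates 2, 3 and 5, and Nfil3 ranked the 6 libraries the same way. Retnlg, Mmp8, Ngp and Ltf were instead higher in control replicate 2 than in control replicate 1. Ngp, Ltf and Camp were lower in aging replicate 5 than in control replicate 2. Nfil3 stood at 3.26, 2.82 and 4.59 CPM per 100 CPM of these markers in control replicates 1, 2 and 3, and at 2.36, 2.56 and 2.52 in aging replicates 2, 3 and 5. With the mean log2 CPM of the markers as a covariate, the log2 fold change of Nfil3 was 0.63 ± 0.26 (SE) in place of 2.25. In the same fit Dbp was at -3.30 ± 0.54, Tef at -1.41 ± 0.57 and Hlf at -1.31 ± 0.59 (SE), and none of the 4 was called. Group accounts for 0.74 of the variance of that covariate and only 95 genes in all were called with it, so the 2 cannot be told apart by the fit. The part of neutrophil transcripts in the Nfil3 difference was not tested. Dbp ranked the control libraries in the reverse order of the marker sum, and in the aging group replicate 2, with the highest marker sum, was between the other 2 libraries in Dbp.

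**Figure D3:**
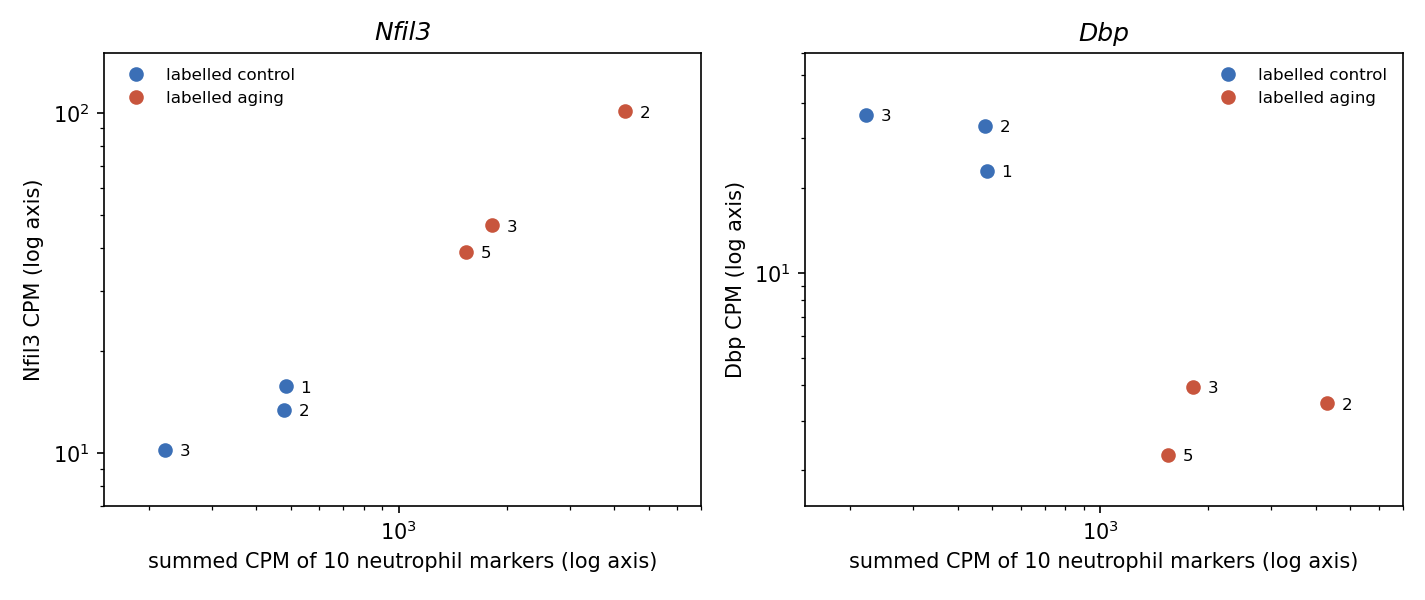
CPM of Nfil3 (left) and Dbp (right) against the summed CPM of 10 neutrophil markers in the 6 libraries, log axes, points numbered by replicate. Nfil3 stands at 10.2 to 15.7 CPM in the control and 39.0 to 101 CPM in the aging libraries, and Dbp at 22.9 to 36.3 and 2.27 to 3.96 CPM. The marker sum is itself split by group, at 222 to 483 and 1545 to 4299 CPM.

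Natural killer and dendritic cells are the cells known to depend on NFIL3. The 10 markers of natural killer and innate lymphoid cells summed to 81.3 to 199 CPM in the control and 42.5 to 78.3 CPM in the aging libraries. None of these passed in edgeR, where 3 had an unadjusted p under 0.05; DESeq2 called 3 and limma on FPKM none. The markers of type 1 dendritic cells summed to 371 to 409 against 324 to 471 CPM, and none of the 6 tested passed in edgeR, by unadjusted p, in DESeq2 or in limma. Zbtb46, Irf8 and Clec9a carried most of that sum, with Zbtb46 at 214 ± 25.2 and 203 ± 19.0 CPM (SD, n = 3 per group). Which cells these 3 transcripts came from was not tested, so the sum is no measure of dendritic cells. Batf3, Itgae and Flt3 had group means of at most 3.15 CPM, and Xcr1 was below the filter, so the sum says little of these 4 markers.

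Genes of the core clock loop, which drive the members and are partly driven by them, were tested in the same fit. Of 18 genes, 4 fell and none rose, beside 5.59% of all tested genes that fell, and the median log2 fold change over the list was -0.11 against -0.01 for all tested genes. The 4 were Nr1d2, Cry2, Ciart and Per2. DESeq2 called 6 of the 18, of which 4 fell and 2 rose. In edgeR 1 gene of the list rose without aging replicate 3, and 1 with the replicate number as a further term. The list was written with results of these libraries known and is no independent support for the members.

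Nr1d2, which encodes the repressor REV-ERB beta, stood at 137, 156 and 163 CPM in the control and 75.3, 85.6 and 67.1 CPM in the aging libraries. The groups were well apart, with a log2 fold change of -1.0 ± 0.11 (SE; edgeR adjusted p = 0.00506). Cry2, a cryptochrome that represses CLOCK and BMAL1, stood at 8.16, 7.87 and 9.63 against 3.28, 4.25 and 2.33 CPM, a log2 fold change of -1.38 ± 0.24 (SE; edgeR adjusted p = 0.0138). Ciart, another repressor of CLOCK and BMAL1, stood at 4.35, 5.34 and 5.35 against 2.65, 2.72 and 2.33 CPM, a log2 fold change of -0.97 ± 0.20 (SE; edgeR adjusted p = 0.0245). Its RefSeq window holds 3 E-boxes, and 0.594% of all windows hold at least 2. Per2, a period repressor, stood at 20.7, 23.8 and 32.2 against 15.8, 15.1 and 13.4 CPM, a log2 fold change of -0.79 ± 0.17 (SE; edgeR adjusted p = 0.0277). For each of the 4 all control libraries were above all aging libraries. Nr1d2 kept its call without any single library, while Cry2, Ciart and Per2 lost theirs without control replicate 2 or 3, as did Ciart and Per2 without aging replicate 3 (range of the edgeR adjusted p 0.0563 to 0.0986). With the neutrophil marker covariate none of the 4 was called: the log2 fold changes were -1.02 for Nr1d2, -1.46 for Cry2, -1.02 for Ciart and -0.64 for Per2 (edgeR adjusted p = 0.101, 0.205, 0.272 and 0.371).

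Other loop genes, named here for their roles after their values were seen, did not pass in the main edgeR fit. Arntl, which encodes BMAL1, stood at 41.2, 35.1 and 29.5 CPM in the control and 57.3, 44.4 and 46.5 CPM in the aging libraries, and its groups did not overlap (log2 fold change 0.49 ± 0.15, SE; edgeR adjusted p = 0.0695). Npas2, a paralogue of Clock, differed by a log2 value of 0.95 ± 0.27 (SE; edgeR adjusted p = 0.0591), and Clock itself -0.04 ± 0.15. Nr1d1, which encodes REV-ERB alpha, the known repressor of Nfil3 transcription, stood at 83.5, 99.1 and 122 CPM against 71.7, 79.4 and 23.5 CPM (log2 fold change -0.80 ± 0.42, SE; edgeR adjusted p = 0.248), with aging replicate 5 far below the others. The labels give no collection time, so a difference in time of day between the groups cannot be told apart from a difference in age.

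The clock genes with known D-boxes overlap with that list. Of 8 genes 7 were tested, and 2 fell, Nr1d2 and Per2, beside 5.59% of all tested genes. Rorb was below the filter. The median log2 fold change of the 7 was -0.62, and 3 of the 7 had an unadjusted p under 0.05. Per3, the period gene whose window carries 2 D-boxes, stood at 9.54, 11.5 and 10.3 CPM in the control and 5.41, 10.2 and 4.83 CPM in the aging libraries. Aging replicate 3 lay within the control range, and Per3 did not pass (log2 fold change -0.62 ± 0.28, SE; edgeR adjusted p = 0.181). Per1, at 193 to 223 against 162 to 229 CPM, had a log2 fold change of -0.13 ± 0.14 (SE). Cry1, the other cryptochrome, had a log2 fold change of 0.36 ± 0.13 (SE; edgeR adjusted p = 0.101).

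**Figure D4:**
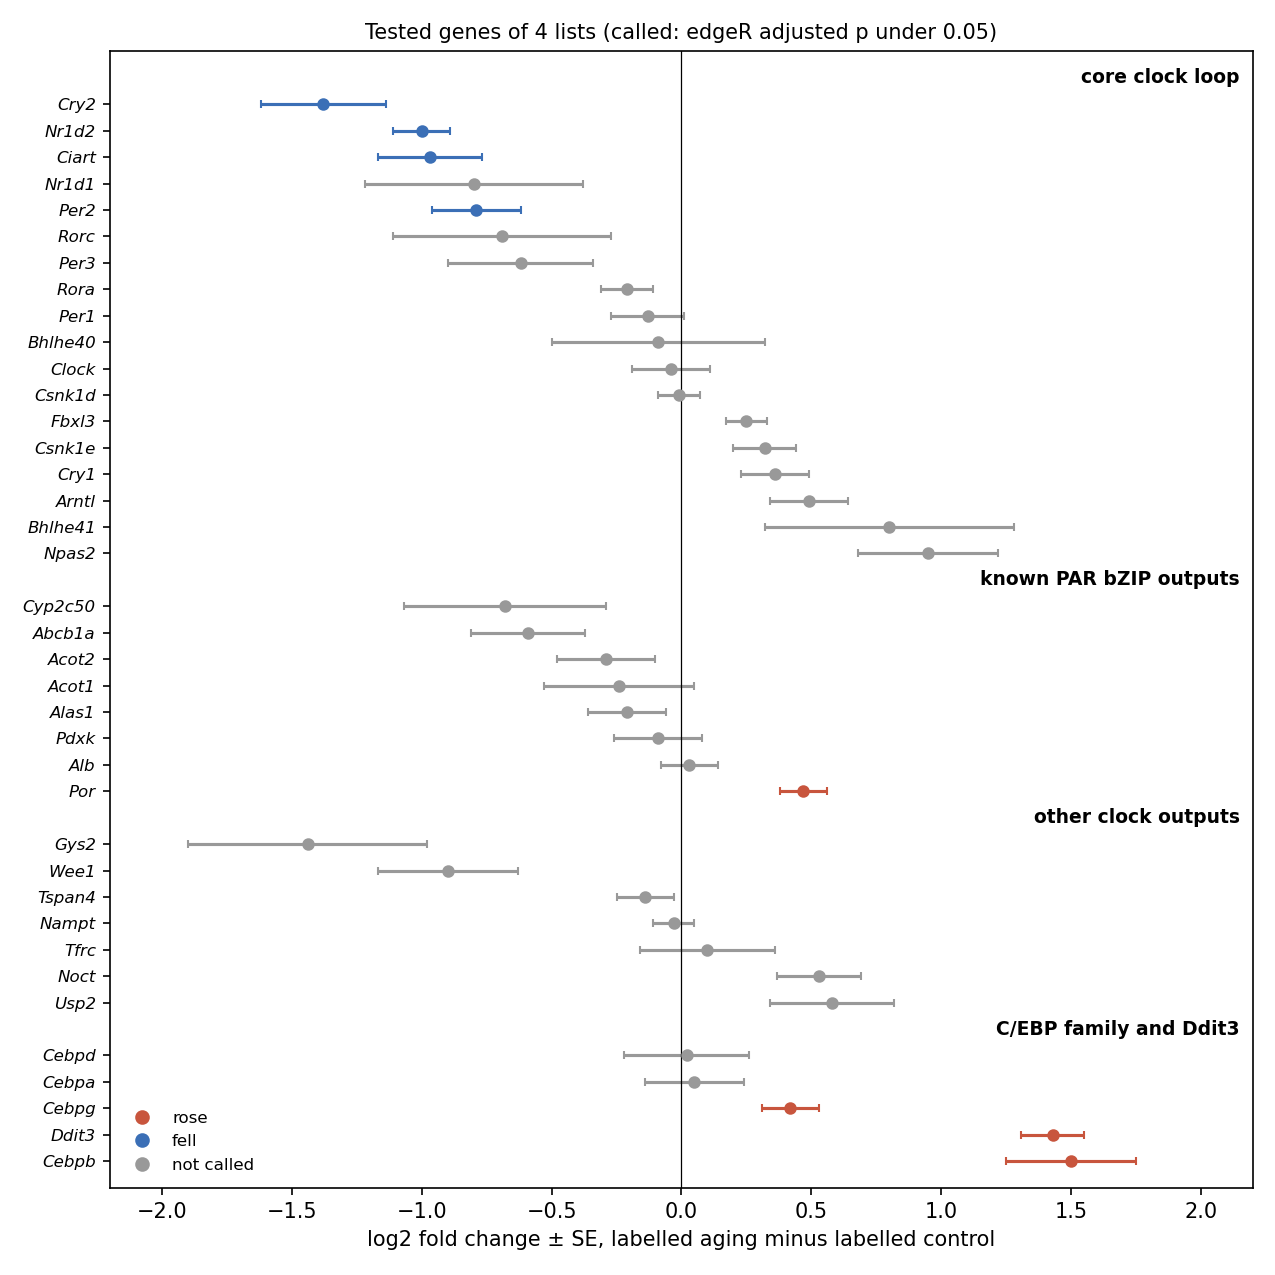
Log2 fold change ± SE (x axis, aging minus control) of the tested genes of 4 lists, coloured by the edgeR call at an adjusted p under 0.05. In the core clock loop Cry2, Nr1d2, Ciart and Per2 fell; among known outputs of the PAR bZIP factors only Por rose; and Cebpb, Ddit3 and Cebpg rose.

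Genes known as outputs of the PAR bZIP factors in liver and other tissues were read in the same fit. Of 16 genes 8 were tested, beside 13096 of all 22298 genes, and 8 were below the filter, among them the hepatocyte genes Cyp7a1, Cyp2b10 and Nr1i3. Of those tested 1 rose and none fell, beside 7.22% and 5.59% of all tested genes. The median log2 fold change was -0.23. Por, the reductase that feeds electrons to cytochrome P450 enzymes, rose from 65.4, 57.8 and 59.2 CPM to 91.8, 80.3 and 80.7 CPM (log2 fold change 0.47 ± 0.09, SE; edgeR adjusted p = 0.0191). Leaving out control replicate 2 or 3 ended that call (edgeR adjusted p = 0.0939 and 0.0796) and it did not pass in limma on FPKM or with the neutrophil marker covariate, where its log2 fold change was 0.28 (edgeR adjusted p = 0.391). Abcb1a, a drug efflux pump, stood at 13.6, 9.45 and 14.5 against 6.45, 9.04 and 9.42 CPM and did not pass (log2 fold change -0.59 ± 0.22, SE; edgeR adjusted p = 0.113). Albumin (Alb), the gene after which DBP is named, stood at 509 ± 53.3 and 520 ± 43.8 CPM (SD, n = 3 per group). Alb is also among the hepatocyte markers above, so its level says little of D-box output in the endothelium. Of 7 other clock outputs none passed in edgeR, where 4 had an unadjusted p under 0.05; DESeq2 called 2 and limma on FPKM none. Noct, the rhythmic gene of nocturnin, stood at 342, 373 and 402 against 420, 559 and 638 CPM (log2 fold change 0.53 ± 0.16, SE; edgeR adjusted p = 0.0614). The cell cycle kinase Wee1 stood at 4.23, 4.95 and 6.48 against 2.3, 2.48 and 3.61 CPM (log2 fold change -0.90 ± 0.27, SE; edgeR adjusted p = 0.0634). Noct passed without aging replicate 2 and Wee1 without aging replicate 5 (edgeR adjusted p = 0.0155 and 0.034). With the neutrophil marker covariate Noct was at 1.12 and passed, and Wee1 was at -0.10 on the log2 scale (edgeR adjusted p = 0.0446 and 0.933).

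The bZIP factors closest to this family, the C/EBP proteins and DDIT3, were tested as a comparison within the wider family. Of 6 genes 5 were tested, and 3 rose and none fell, beside 7.22% and 5.59% of all tested genes. The median log2 fold change was 0.42. Cebpb, an inflammatory and acute-phase factor, stood at 77.0, 64.2 and 52.8 CPM in the control and 252, 157 and 140 CPM in the aging libraries (log2 fold change 1.5 ± 0.25, SE; edgeR adjusted p = 0.0164). Like Nfil3 it was highest in aging replicate 2, and with the neutrophil marker covariate its log2 fold change was 0.50. None of the 3 was called with that covariate, where Ddit3 was at 1.40 and Cebpg at 0.52 (edgeR adjusted p = 0.0562 and 0.243; for Cebpb also 0.243). Ddit3, the stress-induced factor CHOP, stood at 10.3, 10.2 and 9.95 against 25.8, 30.9 and 24.9 CPM (log2 fold change 1.43 ± 0.12, SE; edgeR adjusted p = 0.00229). Its symbol is on 2 rows of the table, of which the other has 0 counts. Cebpg, a partner of other C/EBP proteins, also rose, by 0.42 on the log2 scale, with values of 127, 131 and 151 against 193, 160 and 194 CPM (log2 fold change 0.42 ± 0.11, SE; edgeR adjusted p = 0.0466). Leaving out control replicate 2 or 3 ended the call of Cebpb (edgeR adjusted p = 0.0745 and 0.064), and leaving out any 1 library other than aging replicate 3 ended that of Cebpg (edgeR adjusted p from 0.0623 to 0.165).

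The genes most like each member were found by the root mean square difference of centred log2 CPM profiles over the 6 libraries, among 12198 genes with a mean of at least 1 CPM. These profiles are mostly set by the groups, from whose comparison the members were chosen. A near gene is thus one with a like group difference, and shared regulation was not tested. For Dbp the nearest were Gucy1b1, Cfap69, Lrch2, Steap2 and Aox3, at differences of 0.38 to 0.55 on the log2 scale, and only 4 genes lay within 0.5. Their means in the aging libraries were low, from 0.388 CPM for Lrch2 to 1.38 CPM for Steap2, which limits the precision of these differences. For Tef the nearest was Cry2, at a difference of 0.12, followed by Sox12, Gpr157, Hyal1 and Samd5 at 0.13 to 0.23, with 411 genes within 0.5. Hlf, whose profile is flatter, had 3524 genes within 0.5, and Ccdc160, Greb1l, Endog, Zfp30 and Iffo1 were nearest at 0.09 to 0.16. For Nfil3 the nearest were Sfxn5, Il1b, Ifitm1, Themis2 and Alox5ap, at 0.09 to 0.13, with 245 genes within 0.5. Il1b, which encodes interleukin 1 beta, stood at 144 ± 42.3 CPM in the control and 679 ± 342 CPM in the aging libraries (SD, n = 3 per group), and its fitted log2 difference was 2.24 ± 0.40 (SE). With the neutrophil marker covariate the 5 genes nearest to Nfil3 had log2 fold changes of 0.37 to 0.83. As they were picked for a profile like that of Nfil3, a like drop follows from the choice and adds nothing.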

How the data were processed

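Per the submitters' processing notes, the tools were RSEM, HISAT2, Bowtie2, StringTie 1.3.1 and fastp 0.18.0, in roles that the notes leave out. Build, annotation and strand setting: not given in the sources used here. The deposited count columns hold whole numbers, and the deposited FPKM were computed by the authors. The authors' deposited group means are a score on an FPKM-like scale, their log2 fold change is the log2 ratio of those means, and their p-value and FDR columns, also deposited, were not used.

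The deposited counts went into edgeR 4.0.16 under R 4.3.3 (filterByExpr with a minimum count of 10 and total of 15, TMM factors of 0.963 to 1.05, robust quasi-likelihood fit across all genes with group as the only term, Benjamini-Hochberg threshold 0.05), after a check of the scripts on simulated data. An SE is the absolute log2 fold change over the square root of F. Alternatives used DESeq2 1.42.0 and limma 3.58.1, the latter on log2(FPKM + 0.1), which understates the change of low genes. No library was a repeat of another of its group, since chi-square over degrees of freedom was 8.4 to 54.5 for each pair. The neutrophil covariate is the mean log2 CPM of the 10 markers. The members and lists were chosen with earlier results of these data known. Named genes are the members, from each pathway list the called genes, at most 8, and where fewer than 2 passed also those with the smallest p up to 2, and the 5 genes nearest in profile to each member. Of 22298 gene IDs 22255 are in GENCODE M21.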

Additional observations from a re-analysis of the deposited data

How the results depend on the processing

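No direction of a member reversed under any alternative tried. The number of genes called, 1678, was 268 to 2121 when 1 library was left out (664, 268 and 458 without control replicates 1, 2 and 3, and 860 without aging replicate 3), 95 with the neutrophil marker covariate and 1108 in limma on log2(FPKM + 0.1) without a filter. The number of members called, 3, was 1 to 3 when 1 library was left out and 0 with that covariate. The number of called genes over the 5 pathway lists, 8, was 2 to 10 when 1 library was left out (2 without control replicate 2 or 3), 1 with the covariate (Noct, which is not among the 8, all of which lost their call) and 4 in limma without a filter. The log2 fold change of Dbp was -2.71 on log2(FPKM + 1), where the pseudocount by construction shrinks low values. Replicate numbers 2 and 3 occur in both groups, but same-numbered libraries did not deviate together (correlations of deviations of -0.061 and -0.038). With the replicate block 1698 genes, 3 members and 10 list genes were called. Numbers 1 and 5 occur in 1 group each, so in that fit control replicate 1 and aging replicate 5 add nothing to the group difference. It rests on replicates 2 and 3 of both groups, which leaves little to measure the spread. Dbp in the aging libraries rests on 39 to 67 counts and Hlf on 49 to 143 counts over all libraries, which limits their precision. The cause of each change of a count was not tested.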
